A study of Mus musculus with 18 samples.

Results

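The cohesin subunit SMC1A was set against the DNA-binding protein CTCF in WT DP thymocytes, the double-positive stage at which T cell precursors carry both CD4 and CD8. The peaks were chosen by genotype, antibody and chromosome: all peaks on chromosomes 1 to 19 of the 3 WT lists, 1 for CTCF (replicate 1, batch 1) and 2 for SMC1A (replicate 1, batch 1, and replicate 2, batch 2). They numbered 77840 of the 207322 peaks in the 7 lists of the series that were read, with 38222 for CTCF and 19466 and 20152 for SMC1A. The series profiled sorted DP thymocytes by CUT&RUN, in which an antibody tethers a nuclease to a chromatin protein and the DNA it cuts out is sequenced. Cells came from thymus of WT mice and of mice with an induced deletion of Satb1 (KO), which encodes a chromatin organiser abundant in thymocytes. Tamoxifen was given to both genotypes, so the WT cells had been exposed to it too. No label names the driver of the deletion, the age of the mice or whether each replicate was a mouse of its own. The 4 KO lists, 2 for CTCF and 2 for SMC1A with 124204 peaks on the same chromosomes, served only as readouts that the choice of sites had not used. The peaks measure no RNA, so they do not check the cell type label.

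CTCF is a zinc finger protein that binds a long, oriented DNA motif. Cohesin is a ring-shaped complex that reels chromatin into loops, and bound CTCF is known to stop it, so the borders of loops and domains in mammalian cells commonly carry both. SMC1A is one of the ring's core subunits. In thymocytes, loops of this kind are known for their part in bringing the distant segments of the T cell receptor loci together for recombination.

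A CTCF site below is 1 peak of the WT CTCF list, and it carries SMC1A where an SMC1A peak overlaps it by at least 1 bp. Sites with both marks have SMC1A in both SMC1A lists, and CTCF-only sites have it in neither. SMC1A-only sites are regions held by both SMC1A lists with no WT CTCF peak. Strength is the authors' −log10 q, which ranks peaks within 1 list. Coordinates are mm10. Intervals are 95% Wilson intervals and cover counting error only, and the values by each SMC1A list give the spread between libraries. With 1 WT CTCF list there are no groups of samples to test, so no p-value is given. The series also names a WT CTCF replicate 2, of which no list was read. Presence and absence of WT CTCF thus rest on 1 library.

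Some of the promoters that carry the classes are shown first, since the classes differed in their place relative to gene starts. Each stretch of 100 bases lies upstream of a transcription start of the named gene in RefSeq's GRCm38.p6 table, the assembly that mm10 represents, and is written 5′ to 3′ on the gene's strand. In the first group the capitals mark 11 bases at the CTCF summit (for Mrtfb, at the higher SMC1A summit). Parp3 and Dnpep have the strongest promoter sites with both marks, Letmd1 the strongest CTCF-only one and Mrtfb the strongest SMC1A-only one by the lower value of its 2 lists.
Parp3, chr9:106477100-106477199, minus strand, both marks: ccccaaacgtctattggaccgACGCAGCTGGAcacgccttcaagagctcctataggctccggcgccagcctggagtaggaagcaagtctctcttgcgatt
Dnpep, chr1:75317788-75317887, minus strand, both marks: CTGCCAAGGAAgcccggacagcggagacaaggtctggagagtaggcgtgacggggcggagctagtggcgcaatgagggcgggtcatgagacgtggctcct
Letmd1, chr15:100468794-100468893, plus strand, CTCF only: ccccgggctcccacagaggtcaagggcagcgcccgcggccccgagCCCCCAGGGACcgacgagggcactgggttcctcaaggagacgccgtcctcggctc
Mrtfb, chr16:13256369-13256468, plus strand, SMC1A only: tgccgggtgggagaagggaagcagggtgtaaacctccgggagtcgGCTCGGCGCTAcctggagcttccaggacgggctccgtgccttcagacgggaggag

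None of these 4 stretches holds the core of the CTCF motif, searched on both strands as CC, then 3 bases of any kind, then AGGNGGC. In the second group, chosen after the values were seen as the strongest promoter sites with that core near the CTCF summit and inside the stretch, the capitals mark the match, written as its reverse complement where it lies on the other strand.
Btg1, chr10:96616805-96616904, plus strand, both marks: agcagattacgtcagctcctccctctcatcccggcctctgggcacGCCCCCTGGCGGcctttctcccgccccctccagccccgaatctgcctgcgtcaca
Ep400, chr5:110770745-110770844, minus strand, both marks: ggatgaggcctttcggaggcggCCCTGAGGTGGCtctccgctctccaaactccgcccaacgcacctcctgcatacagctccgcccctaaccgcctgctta
Esrra, chr19:6921910-6922009, minus strand, both marks: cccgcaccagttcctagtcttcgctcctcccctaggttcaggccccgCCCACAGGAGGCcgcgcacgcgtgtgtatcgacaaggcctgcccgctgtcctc
Gm38615, chr5:129063409-129063508, plus strand, CTCF only: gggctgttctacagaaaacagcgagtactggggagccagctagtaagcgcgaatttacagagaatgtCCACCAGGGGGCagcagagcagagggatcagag
Plcb3, chr19:6969883-6969982, minus strand, CTCF only: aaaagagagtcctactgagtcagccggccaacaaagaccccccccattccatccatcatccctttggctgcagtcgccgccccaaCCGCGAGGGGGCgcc

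The site upstream of Parp3, shared with its neighbour Rrp9, had a CTCF fold enrichment of 60.6 and SMC1A folds of 58.5 and 66.1 in the 2 lists. At Dnpep, an aminopeptidase gene, the CTCF fold was 56.4 and the SMC1A folds were 64.8 and 69.0. The SMC1A summits there lay 220 and 175 bp from the CTCF summit, outside the printed stretch. Btg1, an antiproliferative gene, had a CTCF fold of 36.3 over the motif and SMC1A folds of 27.9 and 25.4. The CTCF-only sites were of lower rank: the fold was 23.3 at Letmd1, 14.6 at Gm38615 and 10.8 at Plcb3. SMC1A at Mrtfb had folds of 6.52 and 8.19. Over all 31365 promoter windows of the table (250 bases before to 50 after a start), 3.48% hold the motif core. The share was 7.00% (336 of 4798) for windows with the summit of a site with both marks, 10.3% (81 of 783) with a CTCF-only summit and 2.45% with no site. Among windows with both marks it was 10.1% where the CTCF site was among the strongest 3823 of the list and 4.91% elsewhere. A match is a description of letters, not a bound site.

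Cohesin was called at a minority of CTCF sites by each SMC1A list. Replicate 1 marked 43.6% of the CTCF sites (43.1 to 44.1) and replicate 2 marked 43.8% (43.3 to 44.3). Both lists marked 13770 sites, 36.0% (35.5 to 36.5), neither marked 18596, 48.7% (48.2 to 49.2), and 1 list alone marked the other 5856, 15.3%. The lists shared most of these sites: 82.7% of those marked in replicate 1 were marked in replicate 2, and 82.2% the other way. Seen from cohesin the overlap was closer to complete. CTCF lay at 88.0% of the SMC1A peaks of replicate 1 and 85.5% of those of replicate 2. Of the 14640 SMC1A regions held by both lists, 94.8% (94.4 to 95.1) had CTCF and 767, or 5.24% (4.89 to 5.61), did not. Of the 9940 regions in 1 SMC1A list alone, 63.5% had CTCF.

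The CTCF list is the longest of the 3, and the shares depend on that. With the strongest 19466 peaks of each list, SMC1A in both lists marked 61.7% of CTCF sites, and CTCF marked 84.3% of the SMC1A regions. The 1st percentiles of the local background over peaks, a proxy for depth solved from the deposited fold and p, were 1.02 reads in the CTCF library and 0.533 and 0.465 in the SMC1A libraries. Absence of SMC1A therefore means that no peak was called at this depth.

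Stronger CTCF peaks carried SMC1A more often. In the strongest of 10 bins of equal size of the CTCF list, ordered by −log10 q, 95.1% (94.4 to 95.7) of sites had SMC1A in both lists, in the fifth bin 31.0%, and in the ninth and the weakest bin 3.77% and 3.95%. The single lists gave 96.8% and 96.7% in the strongest bin and 8.19% and 7.95% in the weakest. The median CTCF fold was 10.4 at sites with both marks, 6.10 where 1 SMC1A list marked the site and 4.64 at CTCF-only sites. The median pile-up, the reads stacked at the summit, fell in the same order, from 28 to 15 to 11, and so did the median peak width, from 722 to 445 to 304 bp. In the other direction, CTCF lay at 98.8% and 98.9% of the strongest bin of SMC1A peaks in the 2 lists and at 66.8% and 59.6% of the weakest bin. Where SMC1A had no CTCF its median folds were 5.87 and 5.93, against 8.21 and 8.11 with CTCF.

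**Figure D1:**
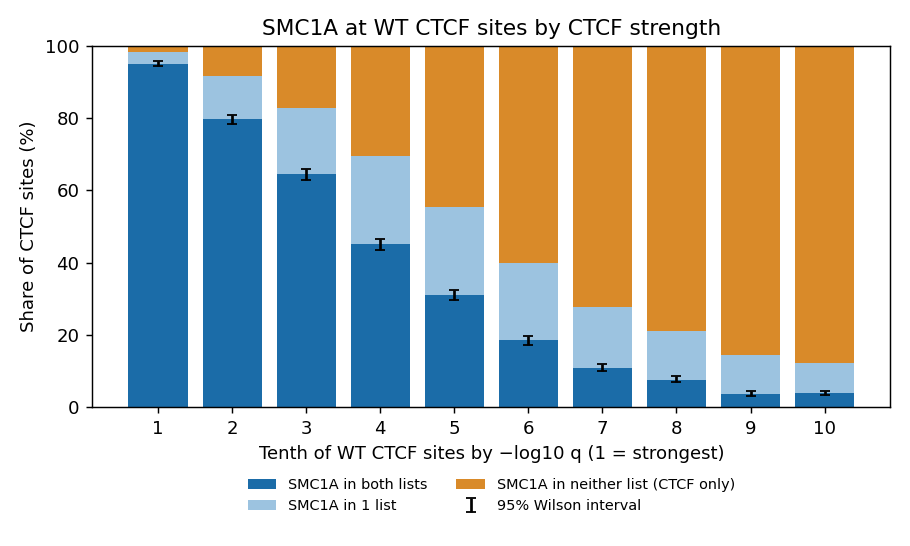
Share of WT CTCF sites (%, y axis) with SMC1A in both lists, in 1 list or in neither, for each bin (10 of equal size) of the CTCF list ordered by −log10 q (x axis, 1 = strongest); black bars are 95% Wilson intervals of the share in both lists. The share with SMC1A in both lists goes from 95.1% in the strongest bin to 3.95% in the weakest.

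The strongest bin also held 63 CTCF-only sites, whose median pile-up of 48 reads was close to the 52 of its sites with both marks. At 13 of the 63 the local background was over 10 reads, a level found at 0.489% of all CTCF-only sites. The KO lists, which played no part in defining the classes, also held less SMC1A there: 49.2% and 30.2% of the 63 had SMC1A in the KO lists, against 99.5% and 98.5% of the sites with both marks in that bin. Their CTCF was found again in 96.8% and 87.3% of cases. The strongest of them on ordinary background was on chromosome 3, with no protein-coding gene within 100 kb (45679637 to 45679997, CTCF fold 31.3). Others lay inside Galnt17, a glycosyltransferase gene (chromosome 5, 130958057 to 130958438, fold 17.2), at the start of Letmd1, 17808 bp from Cyp2c50, a cytochrome P450 gene, inside Nkd2, which encodes a Wnt pathway inhibitor (chromosome 13, 73831233 to 73832134, fold 22.6), and inside Ptges, which encodes prostaglandin E synthase (fold 20.2).

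Across all strengths the KO lists held the same kind of difference. Sites with both marks had CTCF in 99.2% and 79.5% and SMC1A in 95.6% and 87.0% of cases in the KO lists. CTCF-only sites had CTCF in 64.0% and 21.2% and SMC1A in 19.2% and 9.82%. The lower value comes from replicate 2 for both antibodies. No genotypes are compared by these shares, since the WT lists chose the sites.

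CTCF and SMC1A summits lay about as close to each other as SMC1A summits of separate libraries did. At the 13770 sites with both marks the CTCF summit and the SMC1A summit were a median of 60 bp apart in replicate 1 (quartiles 24 and 118) and 61 bp in replicate 2 (24 and 122). The SMC1A summits of the 2 lists were themselves a median of 56 bp apart (21 and 115), 5 bp or less below the distances between the marks. Within 100 bp lay 69.2% and 68.1% of the SMC1A summits, and over 500 bp away lay 1.92% and 2.16%. The SMC1A peak lay wholly inside the CTCF peak at 65.5% and 64.0% of sites. Distances were shorter at strong sites, with medians of 41 and 40 bp in the strongest CTCF bin and 119 and 126 bp in the weakest. Between the 2 SMC1A lists the same bins gave 39 and 79 bp. The width of the CTCF peak made little difference, with medians of 57 to 62 bp for replicate 1 in 4 width bands.

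**Figure D2:**
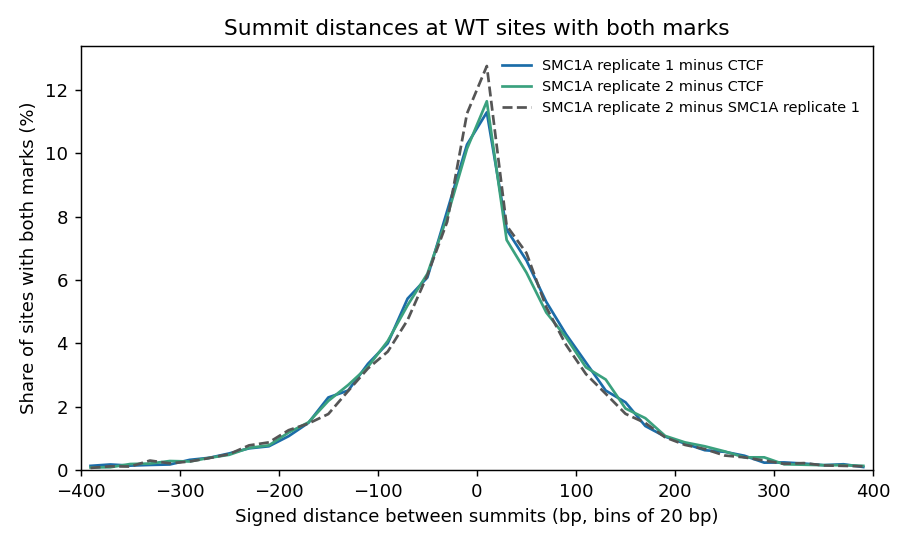
Signed distance between summits (bp, x axis, bins of 20 bp, along the genome) against the share of the 13770 sites with both marks (%, y axis), for CTCF to each SMC1A list (solid lines) and between the SMC1A lists (dashed line). All 3 curves are centred on 0 and have about the same width, with median distances of 60, 61 and 56 bp.

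The sides were close to even in these lists. Along the genome, SMC1A lay to the left of CTCF at 6807 sites and to the right at 6741 in replicate 1, with a signed median of 0. At sites within 1 kb of a start, the SMC1A summit was downstream of CTCF in the direction of transcription at 50.1% (48.7 to 51.4) and 48.8% (47.5 to 50.2). The motif allows the question that cohesin raises, on which side of oriented CTCF it stops, only for promoters: 215 sites with both marks had the motif core within 100 bp of the CTCF summit. SMC1A lay on the 3′ side of the CTCF summit, along the strand of the motif, at 55.0% (48.2 to 61.5, of 211 sites) in replicate 1 and 51.4% (44.7 to 58.1, of 212) in replicate 2. Both intervals hold an even split, and the signed medians were 8 and 3.5 bp towards the 3′ side. Against the motif centre, SMC1A lay on the 3′ side at 49.3% (42.7 to 55.9) and 45.1% (38.6 to 51.8) of the 215 sites. The signed medians from the centre were −0.5 and −13.5 bp, towards the 5′ side. The side of the medians thus depended on the reference point.

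Sites with both marks lay at gene starts more often than the other classes. Within 1 kb of the start of a protein-coding gene lay 39.4% of sites with both marks (38.6 to 40.3), 22.4% of sites marked in 1 SMC1A list, 13.5% of CTCF-only sites (13.0 to 14.0) and 9.76% of SMC1A-only sites (7.83 to 12.1). Median distances to a start were 6.25 kb, 14.3 kb, 13.2 kb and 31.5 kb in that order. The interior of genes ran the other way: 30.1% of sites with both marks, 47.3% of CTCF-only and 45.9% of SMC1A-only sites lay in a gene body more than 1 kb from its ends. Over 100 kb from any gene body lay 2.11%, 3.40% and 9.26%. Starts are those of the promoter table, which covers 16457 of the 20665 protein-coding genes and has no window on chromosome 18, so these shares cover chromosomes 1 to 17 and 19. A site at the start of a gene without a window was measured to the nearest start in the table. The site at the Myc start (chromosome 15, 61985033 to 61985773) was thus given a distance of 1063846 bp.

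The difference was also seen among CTCF sites of like strength. In the strongest bin 1910 of 3545 sites with both marks, 53.9% (52.2 to 55.5), were at a start, against 5 of 62 CTCF-only sites, 8.06% (3.49 to 17.5). In the second bin the shares were 38.9% and 6.03%, in the third 36.5% and 5.76%, in the fifth 31.2% and 15.3%, and in the weakest 23.6% and 10.7%. The intervals of the classes did not overlap in 9 of the 10 bins, and in the ninth they did (14.7 to 28.0 and 12.5 to 14.9). Taken from 1 SMC1A list at a time, the strongest bin gave 53.2% with and 12.3% without SMC1A in replicate 1, and 53.3% and 12.8% in replicate 2. Among CTCF-only sites the share at starts was lower in each of the 3 strongest bins than in any of the other 7.

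**Figure D3:**
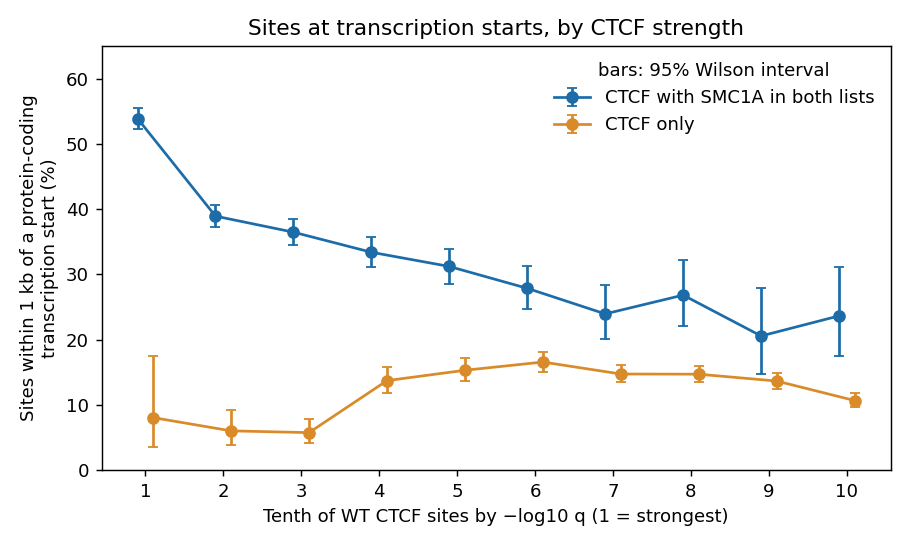
Share of sites within 1 kb of a protein-coding transcription start (%, y axis) by bin (10 of equal size) of the CTCF list ordered by −log10 q (x axis, 1 = strongest), for sites with both marks and CTCF-only sites; bars are 95% Wilson intervals. Sites with both marks fall from 53.9% to 23.6%, and CTCF-only sites stay between 5.76% and 16.6%.

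Sites with both marks were spread over the genome at a median of 38.7 kb from the next such site (quartiles 12.9 and 110.6 kb). All CTCF sites together had a median spacing of 11.0 kb, CTCF-only sites 28.8 kb and the far rarer SMC1A-only sites 1424 kb. Neighbours under 10 kb apart made up 20.7% of the distances for sites with both marks and 31.5% for CTCF-only sites. The classes were mixed along the chromosomes. The next CTCF site after one with both marks had both marks in 34.3% of cases and was CTCF only in 50.5%, and after a CTCF-only site the shares were 37.3% and 47.5%, near the overall 36.0% and 48.7%. The median CTCF-only site lay 11.2 kb from a site with both marks, and the median SMC1A-only site lay 10.9 kb from a CTCF site. By chromosome the share with both marks went from 30.8% (28.5 to 33.3) on chromosome 14 to 40.9% (38.7 to 43.1) on chromosome 17.

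**Figure D4:**
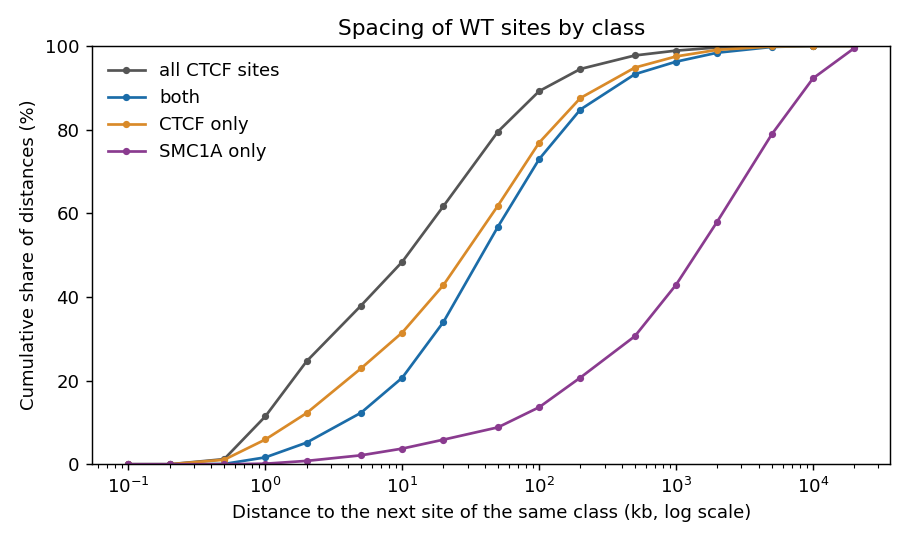
Cumulative share of distances to the next site of the same class (%, y axis) against distance (kb, log scale x axis), for all CTCF sites and the 3 classes. Sites with both marks (median 38.7 kb) lie slightly to the right of CTCF-only sites (28.8 kb), and SMC1A-only sites (1424 kb) far to the right; the classes differ in number of sites, which also sets their spacing.

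Most sites with both marks stood alone. With neighbours joined within 10 kb they formed 10925 runs, of which 8867 were single sites, 1542 pairs, 348 runs of 3 and 168 runs of 4 or more. The longest run had 11 sites in 25.3 kb on chromosome 11 (87734562 to 87759834), over Supt4a, an elongation factor gene, Rnf43, a Wnt pathway ubiquitin ligase gene, and Tspoap1. A pair of runs of 9 sites lay near each other on chromosome 6 (47651138 to 47685526 and 47740185 to 47778167), the first over predicted genes such as Gm40369. A run of 7 in 11.9 kb lay at the 5′ end of Bcl11b on chromosome 12 (107993363 to 108005305), and runs of 7 also lay over Kdm6b, an H3K27 demethylase gene, and over Zfp523 and Def6. At the other extreme, 517 stretches of over 1 Mb had no site with both marks and summed to 1198 Mb. All but 34 held some CTCF. The longest, 11.4 Mb on chromosome 1 (106884097 to 118311409), holds the Serpinb protease inhibitor cluster and had 6 CTCF-only sites. Others covered Cdh9, Cdh10, Cdh12 and Cdh18, the genes of classical cadherins (chromosome 15, 10.9 Mb), and Slitrk1, Slitrk5 and Slitrk6, neuronal membrane protein genes (chromosome 14, 7.94 Mb). The most crowded 1 Mb window had 55 sites with both marks among 63 protein-coding genes, on chromosome 11 from 69000001, with Aurkb, Per1 and Vamp2.

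By gene, the T-lineage commitment factor Bcl11b tied for most sites with both marks. Its body (chromosome 12, 107910403 to 108004145) held 11 of them, 1 site marked in 1 SMC1A list, 4 CTCF-only sites and no SMC1A-only site. Septin9, a cytoskeletal GTPase gene, also held 11, Gse1 10, and Itpkb, an inositol trisphosphate kinase gene needed in thymocyte development, and Ppm1h, a phosphatase gene, 9 each. Itpkb had only 1 CTCF-only site, whereas Gse1 had 18, the most of any gene. After Gse1, CTCF-only sites were most frequent in Nav2 with 14 (against 3 with both marks), Kansl1, a histone acetylation complex gene, and Trak1, a mitochondrial transport gene, with 13 each (3 and 2), and Med13l, a Mediator kinase module gene, with 11 (3). Of the 20665 protein-coding genes, 26.3% held a site with both marks in their body and 58.0% had one within 20 kb.

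The peak at the Bcl11b start (108003064 to 108004596) had a CTCF fold of 17.4 and SMC1A folds of 16.7 and 18.8, with the SMC1A summits 11 bp to the right and 34 bp to the left of CTCF. Inside the gene, the site from 107998706 to 108000360 had folds of 15.0, 15.1 and 13.9. The highest SMC1A fold of replicate 1 in the gene lay deeper in it (107964731 to 107965065), with a CTCF fold of 10.3 and SMC1A folds of 18.2 and 9.85. The 2 SMC1A lists thus differed more from each other at that site than at the start.

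Near genes of the T cell programme, and of some other lists, a larger share of CTCF sites carried SMC1A than near all genes. Within 20 kb of a protein-coding gene, 36.7% of CTCF sites carried both marks. Near 27 T cell receptor, coreceptor and signalling genes the share was 50% (93 of 186 sites, 42.9 to 57.1), and near 31 T-lineage transcription factor genes it was 48.6% (123 of 253, 42.5 to 54.7). All 31 factor genes and 25 of the 27 receptor and signalling genes had at least 1 site with both marks within 20 kb, against 58.0% of all protein-coding genes, and the median number was 3 and 4, against 1. Lists outside the T cell programme also had high counts: 12 of 12 genes of cohesin and CTCF, 15 of 16 housekeeping genes and 9 of 10 nuclear architecture genes. The median −log10 q of CTCF sites was 5.99 and 6.52 near the 2 T cell lists and 7.44 near all protein-coding genes. The share among CTCF sites of like strength was not tested for these lists. In gene bodies alone the receptor and signalling genes had 40.5% (30.1 to 51.9), an interval that holds the 33.4% of all genes, and the factor genes had 47.7% (39.8 to 55.6). Effector and cytokine genes had 66.7% there (6 of 9 sites) and housekeeping genes 55.6% (10 of 18). Genes of cohesin and CTCF, nuclear architecture genes, Hox clusters and B cell markers were below all genes in their bodies. Of the other lists within 20 kb, apoptosis genes had 45.9%, imprinted genes 48.5%, housekeeping genes 42.9%, effector and cytokine genes 54.8% (17 of 31), nuclear architecture genes 38.2% and genes of cohesin and CTCF themselves 34.6%. The 4 Hox clusters had 23.7% (9 of 38) and genes of thymic epithelium 25% (8 of 32). B cell markers had 40%, myeloid markers 44.4% and erythroid markers 44.4%, on 25, 9 and 18 sites. Within 100 kb the 2 T cell lists had 45.2% and 45.6%, against 36.3% for all protein-coding genes. Myeloid markers had 52.0% there (51 of 98, 42.3 to 61.7), effector and cytokine genes 47.5% and nuclear architecture genes 46.1%. Hox clusters, at 26.5%, and genes of thymic epithelium, at 33.0%, were below all genes. The lists were chosen with earlier results of these data known, their sites number few, and nothing is called particular to a list from these counts.

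**Figure D5:**
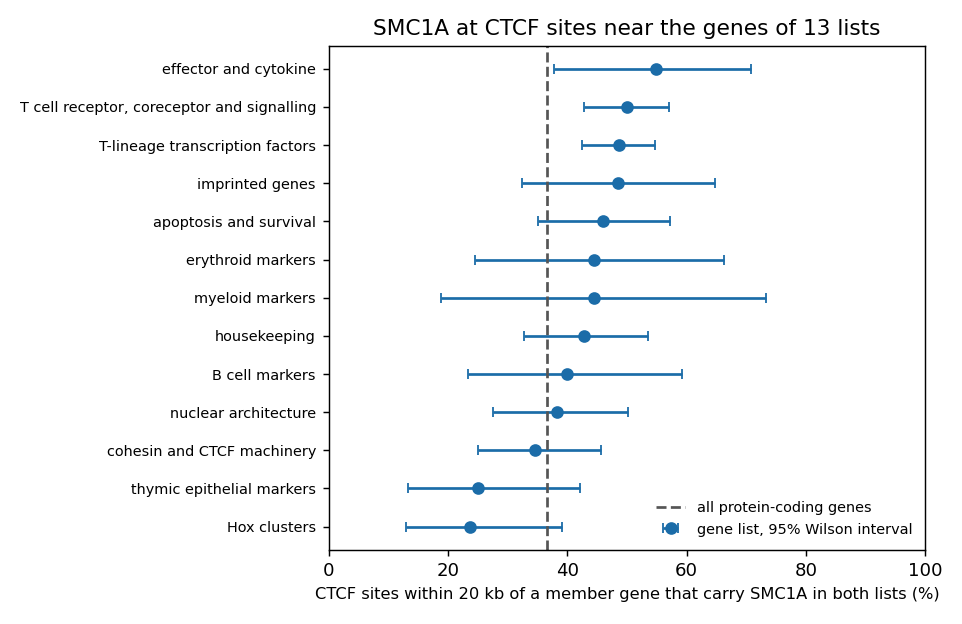
Share of CTCF sites within 20 kb of a member gene that carry SMC1A in both lists (%, x axis) for 13 gene lists (y axis), with 95% Wilson intervals; the dashed line marks all protein-coding genes at 36.7%. The T cell receptor list (50%), the T-lineage factor list (48.6%) and the effector list (54.8%, on 31 sites) have intervals above the line, and Hox clusters (23.7%) have the lowest share.

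At the recombinase and coreceptor genes, the summits of sites with both marks lay beside the gene, not in it. Rag1 and Rag2, the recombinase genes, had 3 and 2 such sites within 20 kb and none in their bodies. One of them sat at the Rag1 start (chromosome 2, 101649316 to 101649943), with folds of 8.19 for CTCF and 8.21 and 6.38 for SMC1A. Cd4 had 5 and Cd8a 7 sites with both marks in their flanks, and neither had one in its body. At the Cd8a start (71372458 to 71373954) the CTCF fold was 9.87 and the SMC1A folds were 21.5 and 10.3, so the SMC1A lists differed there too. The strongest near Cd4 (chromosome 6, 124903181 to 124904466) had folds of 15.7, 11.2 and 8.70. Of the other receptor and signalling genes, named outside the fixed rule after their values were seen (Cd247 and Trbc1 excepted), Cd247, which encodes the receptor's zeta chain, had 11 within 20 kb, Cd3e 6, Lck 5, Ptcra 3 and Zap70 4. The constant region genes Trac and Trbc1 had 3 and 6, and Trdc and Trgc1, of the gamma delta receptor, had 0.

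Among the factors, Ets1 held 8 sites with both marks in its body and no CTCF-only site. The one from 32747418 to 32748113 on chromosome 9 had folds of 12.0 for CTCF and 24.2 and 17.2 for SMC1A. Bcl6, the gene of a transcriptional repressor that follicular helper and germinal centre B cells need in order to form, had 6 within 20 kb, and Tcf7 7. Nr4a1, Runx1 and Gata3, also named after their values were seen, had 8, 6 and 3. Near Myc there were 2, and the Myc body held 1 SMC1A-only site. Within 20 kb of Ctcf itself lay 6 sites with both marks, 2 of them in its body, and 10 CTCF-only sites. The strongest, 13237 bp from the nearest start and outside the gene (chromosome 8, 105622207 to 105624017), had folds of 23.9 for CTCF and 37.0 and 25.03 for SMC1A. Near H19, whose imprinting control region is a textbook CTCF target, lay 1 site with both marks (chromosome 7, 142580012 to 142581024, CTCF fold 8.47, SMC1A folds 6.15 and 9.15) and 1 CTCF-only site.

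SMC1A-only sites were most frequent at Satb1, the gene deleted in the KO mice. Its body (chromosome 17, 51736187 to 51833290) held 7 of the 767, the most of any gene, beside 7 sites with both marks and 5 CTCF-only sites. From left to right the pile-up at the 7 was 22, 14, 13, 17, 16, 26 and 9 reads in replicate 1 and 18, 16, 12, 26, 20, 28 and 11 in replicate 2. A CTCF site lay within 1 kb of 2 of them and within 8 kb of all. KO CTCF replicate 1 held CTCF at those from 51767849 and 51829409, and KO CTCF replicate 2 at none of the 7. KO SMC1A replicate 1 held those from 51739897, 51808937 and 51829409, and KO SMC1A replicate 2 held none. Clec16a, Foxp1 and Lef1 held 3 each, the last 2 being genes of thymocyte transcription factors. KO CTCF replicate 1 held CTCF at each of the Clec16a and Lef1 sites and at each Foxp1 site except the one from 99452653. KO CTCF replicate 2 held it only at the Clec16a sites from 10571819 and 10585067. Within 20 kb of the 31 T-lineage factor genes lay 21 SMC1A-only sites beside 123 CTCF sites with both marks, so that SMC1A-only sites made up 14.6% (9.74 to 21.3) of these 144 sites. An SMC1A peak that overlaps more than 1 CTCF site is counted there with each. Counted in the same way, the share was 4.37% (4.03 to 4.73) near all protein-coding genes. Without Satb1 it was 14 of 130, 10.8% (6.52 to 17.3). For the receptor and signalling genes it was 8.82% (4.71 to 15.9), and for housekeeping genes it was 0 of 36, with a Wilson upper bound of 9.64%. A window of 1 Mb on chromosome 2 held 6, 3 of them inside Prkcq, the gene of the T cell signalling kinase PKC theta, with pile-ups of 7 to 11 reads. KO CTCF replicate 1 held CTCF at each of the 3 Prkcq sites, and replicate 2 at none of them.

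Strong SMC1A-only sites on ordinary background lay inside Lif, a cytokine gene (chromosome 11, 4268082 to 4268504, folds 49.3 and 31.9), inside Gm5591 (chromosome 7, 38525388 to 38525725, folds 30.9 and 28.95), inside AW554918, near Azin1, 5712 bp from Golm2 (chromosome 2, 121941758 to 121942114, folds 23.8 and 19.8), near Vstm4, near Tnfrsf13c, the BAFF receptor gene, and inside Dpep2. Of these sites, only those at Gm5591 and Golm2 were among the strongest SMC1A-only sites that also lacked CTCF in the KO lists. The Lif site, the strongest of those named, was not.

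Many SMC1A-only sites had CTCF in another list. KO CTCF replicate 1, the longest list of the series, held CTCF at 65.2% (61.7 to 68.5) of the 767 and replicate 2 at 23.3%. With either counted, 72.8% had CTCF there, so 209 had it in none of the 3 CTCF lists. Of the 206 of these with a start value, 4.37% (2.32 to 8.09) were at a gene start. Gm5591, Golm2, St8sia1, a sialyltransferase gene, Rab7, Sash1 and Tmtc1 hold or neighbour some of the strongest of the 209. The 767 were found again in the KO SMC1A lists at 68.8% and 46.9%, below the 95.6% and 87.0% of sites with both marks.

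The highest peaks of all came from regions with high local background. All 8 of the top sites with both marks by the fixed ranking had over 10 background reads in at least 1 list, though such sites made up 0.646% of the class. Among sites with no solved background over 10 reads, called lower background here, 7 top sites had a gene within 100 kb. The highest ranked lay 874 bp from Crebzf, a bZIP factor gene (chromosome 7, 90441811 to 90442025, CTCF fold 53.4, SMC1A folds 57.7 and 79.9). The others lay 99633 bp from Gm8882, 10248 bp from BC048403, 14588 bp from Gm32856, inside Hhat, inside Ybx3 and 136 bp from Rrp9. The SMC1A folds of both lists were above the CTCF fold at most of the top sites on lower background. These folds are set side by side as deposited, from libraries of unlike depth. At the site nearest to Gm8882 the folds were 44.4 for CTCF and 139.6 and 168.1 for SMC1A. Inside Ybx3, a cold shock domain protein gene, they were 28.2, 129.3 and 133.7. The SMC1A background could not be solved at the Ybx3 site in either list, or in replicate 2 at the Gm8882 site. That background is therefore not known to be low. At Gm32856 the CTCF fold was the higher (212.6, against 58.5 and 51.6), and at Rrp9 it lay between the SMC1A folds. The summits of the marks were 0 to 13 bp apart at the Gm8882 and Ybx3 sites.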

How the data were processed

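Peaks of CUT&RUN libraries were read as deposited. Per the submitters' processing notes, Trimmomatic 1.24, Bowtie2, SAMtools, deepTools, MACS2 and R 4.12 were used with mm10; settings and any control library: not given in the sources used here. Each list is of 1 library. The deposited values of each peak are a fold enrichment (a ratio), a −log10 p, a −log10 q and a summit offset, a score in bp, all as the authors' peak caller wrote them. They contain no counts; pile-up and local background were solved from the deposited fold and p, within a tolerance of 0.001, for 100%, 99.99% and 98.4% of the WT CTCF, SMC1A 1 and SMC1A 2 peaks. They give only a relative depth.

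Overlaps, distances and shares were computed in Python 3.11.15 with numpy 2.4.6, pandas 2.3.3, scipy 1.17.1 and matplotlib 3.10.9, and the steps were tested on simulated data. Genes and promoters came from RefSeq's GRCm38.p6 tables, in which all 215 genes of the 13 lists were found; exons and introns were not assigned. The members and lists were chosen with earlier results of these data known. Named by rule were the 8 strongest sites and the 5 genes with most sites per class, up to 3 genes per list, and 12 genes always. Alternatives were a −log10 q of at least 5, lists of equal length, an overlap of 0.5 of the shorter peak, summits within 200 bp, each SMC1A list alone, ranking by fold, gene ends within 5 kb, all genes, chromosome X and a shorter motif. A local background of up to 10 reads and the factor list without Satb1 were chosen after seeing the data. No label says whether each replicate was a separate animal, so the spread between lists may be technical. One gene that the rule names is not reported here.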

Additional observations from a re-analysis of the deposited data

Results flagged for a closer look

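Chromosome X lay outside the comparisons, which cover chromosomes 1 to 19, and carried the same marks. Of its 698 WT CTCF sites, 258 had SMC1A in both lists, 37.0% (33.5 to 40.6). Of its 284 SMC1A regions in both lists, 91.9% (88.1 to 94.5) had CTCF and 23 did not.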

How the results depend on the processing

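No paired analysis was possible because only 1 WT CTCF list was used and no groups were tested. With peaks of −log10 q of at least 5, the share of CTCF sites with SMC1A was 39.5%, the summit distance 53 bp, the spacing of sites with both marks 54.0 kb and their share at a gene start or end (43.5% as reported) 47.7%. With lists of equal length these were 61.7%, 57 bp, 44.7 kb and 45.9%, CTCF lay at 84.3% of SMC1A sites, and the KO CTCF lists held 89.0% of SMC1A-only sites. An overlap of 0.5 of the shorter peak gave a share of 35.2% and a spacing of 39.7 kb. Summits within 200 bp gave 30.6%, 85.4%, 50.5 bp, 46.7 kb and, for the KO lists, 89.8%. The share at gene ends was 60.5% within 5 kb and 49.3% with all genes. Ranking by fold gave 94.2% in the strongest bin of CTCF sites. Leaving out each SMC1A list in turn gave 43.6 to 43.8% of CTCF sites, 85.5 to 88.0% of SMC1A sites, 63 to 65 bp, 31.3 to 32.1 kb, 40.3 to 41.1% at gene ends, 57.4 to 65.4% for the KO lists and 96.7 to 96.8% in the strongest bin. Using 1 list in place of both changes the definition of a site, and an equal length drops weak CTCF peaks. Summits within 200 bp cap the summit distance by definition. A limit of 5 kb and the use of all genes could only raise the share at gene ends. The cause was not tested for the rest. Of the 57 alternative values of the main results, 34 are given above or within these ranges. Of the other 23, 6 come from taking deposited peaks singly, which could change nothing, since no peak overlaps another of its list. With a local background of up to 10 reads the 6 results recomputed moved by less than the spread between lists. Weak SMC1A below the calling limit is counted as absent.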

Other observations

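The 1 Mb window with most CTCF-only sites lay over the variable segments of the T cell receptor alpha locus on chromosome 14. It held 82 CTCF sites, of which 64 were CTCF only, 11 had SMC1A in 1 list and 7 in both, and no SMC1A-only site. Of its 103 annotated genes 91 are Trav segments, and 40 of the 64 CTCF-only sites lay within 1 kb of one. Their median −log10 q was 7.45, against 4.40 for all CTCF-only sites, and their median spacing was 8.82 kb. Another window with 64 CTCF-only sites, on chromosome 7 from 19000001, also had 43 sites with both marks among 55 protein-coding genes.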
